A study of Mus musculus with 6 samples.

Results

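The genes described here are 9 genes of bone morphogenetic protein (BMP) signalling in mouse presomitic mesoderm (PSM), the tissue behind the last somite from which new somites are cut. They are the ligand genes Bmp2, Bmp4 and Bmp7, the Id genes Id1, Id2 and Id3, and the feedback inhibitors Smad6, Smad7 and Bambi. They were chosen by name, as all probe sets annotated to exactly 1 of these symbols. All 9 genes were found, with 13 of the 19551 probe sets that are not array controls, against 10290 genes with a single symbol in the whole table.

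The study compared 3 mutant pools (R26R AC/AC;T-Cre) with 3 control pools (R26R AC/AC), so every embryo carried the AC allele at R26R, and Cre was the labelled difference. T-Cre is a Cre driven by the promoter of T (Brachyury), active in the primitive streak and the mesoderm that leaves it. AC is taken, from knowledge of the study and not from its labels, to be A-CREB, which binds CREB and its relatives and keeps them off DNA; the series title names that family. No pool carried T-Cre without the AC allele, so effects of Cre and of AC cannot be told apart. Embryos were of the C57BL6/6J background at embryonic day 8.75, and each pool, of 3 anterior PSMs, was hybridised to 1 Affymetrix 3' expression array.

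BMP ligands are secreted dimers that bind type I and type II serine/threonine kinase receptors, which phosphorylate Smad1, Smad5 and Smad9. These enter the nucleus with Smad4 and switch on the Id genes, whose products bind bHLH transcription factors and keep them off DNA, and the inhibitors Smad6, Smad7 and Bambi, which feed back on the pathway. In the embryo of this stage BMP4 is made mainly by lateral mesoderm and surface ectoderm beside the PSM, and BMP antagonists keep signalling low in paraxial mesoderm. Bmp2 and Bmp7 are also expressed in surface ectoderm.

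Values are MAS5 signals, linear and scaled per array by the authors, with array medians between 491 and 535. Differences are mutant minus control on log2(signal + 1), tested with limma over the 11731 probe sets at or above the 40th percentile of mean log2 signal (geometric mean signal 349). Of the 13 probe sets of the 9 genes, 9 were tested, and they covered 8 genes, since both Bmp7 probe sets lay below that level. A Benjamini-Hochberg adjusted p under 0.05 counted as a change. The arrays fell into 3 with a 3' to 5' signal ratio of the spiked dap transcript above 15 (mutant 1, mutant 2 and control 1) and 3 below it (mutant 3, control 2 and control 3), so differences within each set are also given for the tested members.

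None of the 9 tested probe sets passed (0 higher, 0 lower), where 0.69% of all tested probe sets did, 0.247% higher and 0.443% lower. At an unadjusted p under 0.05, 3 of the 9 were found (Bmp2, Bmp4 and 1 Id2 probe set), all with a positive difference, against 13.6% of all tested probe sets in either direction and 6.16% with a positive one. A model without moderation gave 0 of 9 at either threshold. By role, both tested ligand probe sets and all 4 tested Id probe sets had positive differences, and the 3 tested inhibitor probe sets had negative ones. The median over the 9 was 0.23, and that over all tested probe sets was −0.0018. The smallest difference called anywhere in the table was 0.46 in absolute log2 units, so Bmp2 and Bmp4 were beyond that size but did not pass, given their spread between pools.

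**Figure D1:**
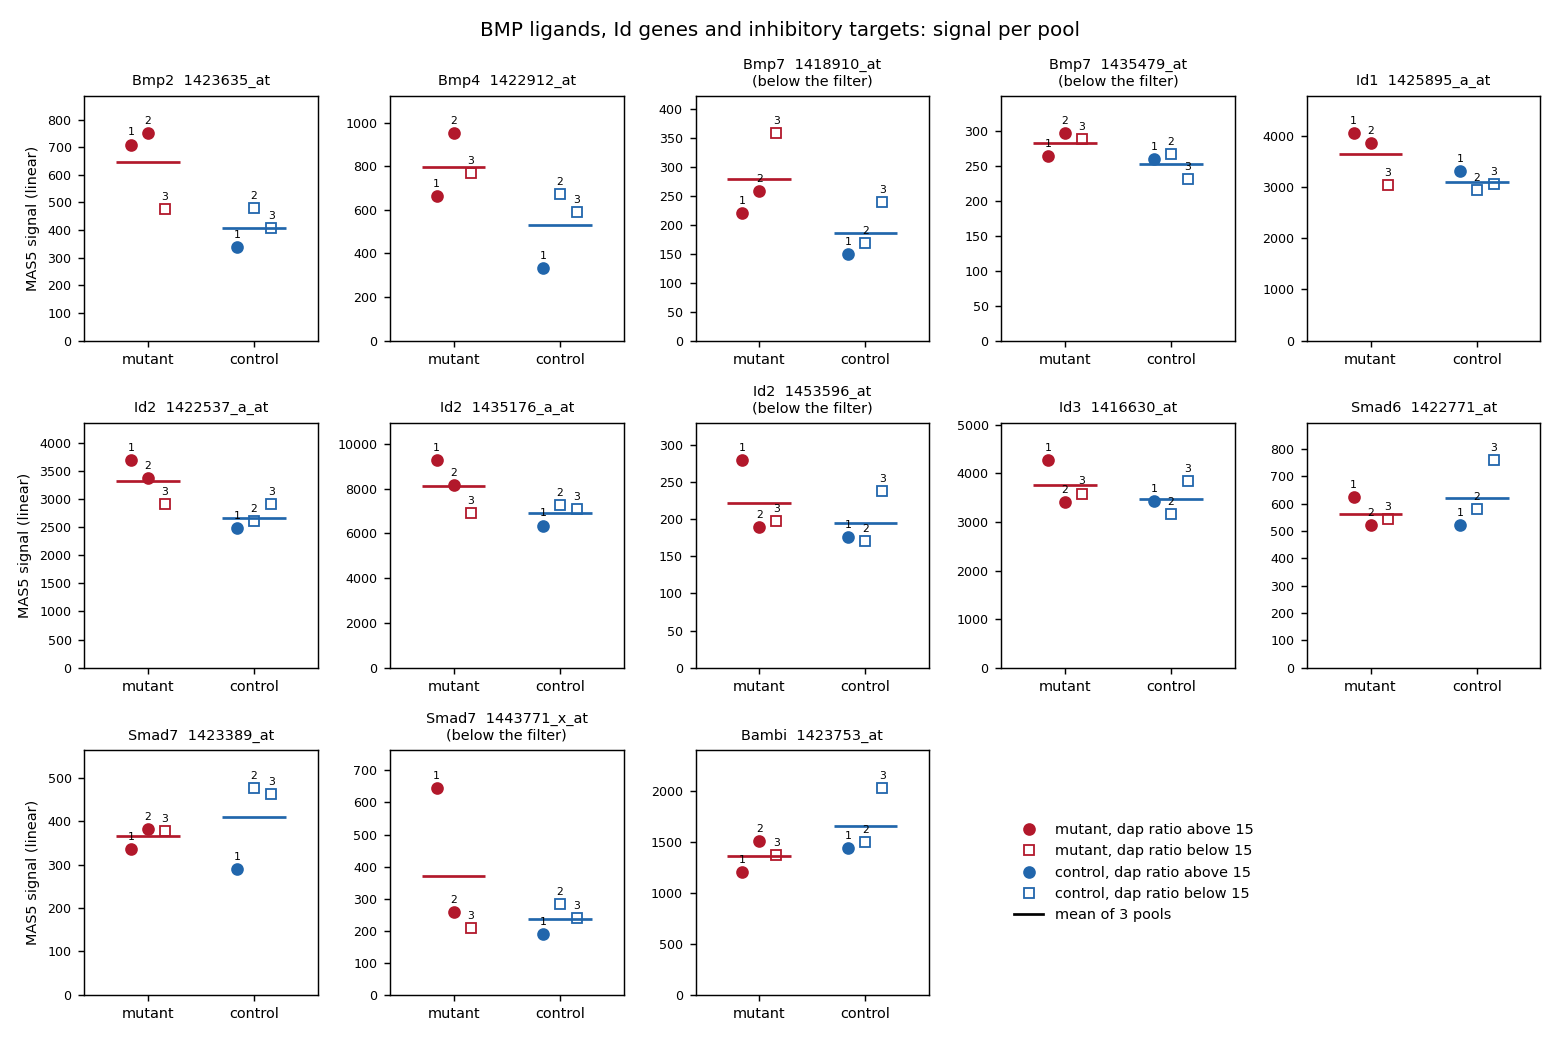
MAS5 signal (linear, from 0) of the 13 probe sets of the 9 genes in each mutant pool (red) and control pool (blue), numbered by replicate; filled circles are arrays with a dap ratio above 15, open squares those below it, and bars are means of 3 pools. The groups overlap in every panel except Id2 1422537_a_at, where mutant 3 (2909.5) and control 3 (2907) are almost level.

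The ligands had the largest differences of the tested probe sets. Bmp2, a ligand of heart and surface ectoderm, had signals of 709.9, 751 and 478 in mutant 1, 2 and 3, and of 340.4, 479 and 409 in control 1, 2 and 3. Mutant 1 and mutant 2 stood above every control pool, while mutant 3 was level with control 2, so the groups overlapped. Means were 646 ± 147 in mutant and 409 ± 69.1 in control pools (SD, n = 3 each). The log2 difference was 0.64 (SE 0.21, 95% confidence interval 0.18 to 1.10, limma adjusted p = 0.212), a ratio of 1.56.

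Bmp4, a ligand of ventral and lateral mesoderm, had 665, 951 and 767 in mutant 1, 2 and 3 and 335, 672 and 589 in control 1, 2 and 3. Control 1 was by far the lowest array, and mutant 1 lay just below control 2. Mean signals were 795 ± 145 in mutant and 532 ± 176 in control pools (SD, n = 3 each), and the difference was 0.62 on the log2 scale (SE 0.25, interval 0.05 to 1.20, limma adjusted p = 0.326). Without control 1 the Bmp4 difference was 0.32 (adjusted p = 0.348). With the dap set as a covariate it was 0.77 and passed (limma adjusted p = 0.0397), in a fit that called 555 probe sets in all.

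Bmp7, the third ligand, was dim. Probe set 1418910_at read 221, 258 and 358 in the mutant pools and 150.2, 169 and 239 in the control pools. Its groups overlapped through mutant 1 and control 3. In a fit without a filter, which called 0.558% of its probe sets and 0 of the 13 described here, its difference was 0.58 (SE 0.24, limma adjusted p = 0.343). The other Bmp7 probe set, 1435479_at, read 263, 296 and 289 in mutant and 259, 267 and 231 in control pools, with 0.16 (SE 0.16, limma adjusted p = 0.719). Both Bmp7 probe sets thus had positive values, of unequal size.

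The difference of Bmp2 was 1.10 within the high-ratio arrays (mutant 1 and 2 against control 1) and 0.11 within the others (mutant 3 against control 2 and 3). For Bmp4 these values were 1.25 and 0.29. Bmp7 did not part in this way: 1418910_at had 0.66 and 0.83. Each set holds a single pool of one genotype, so these values have no test.

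**Figure D2:**
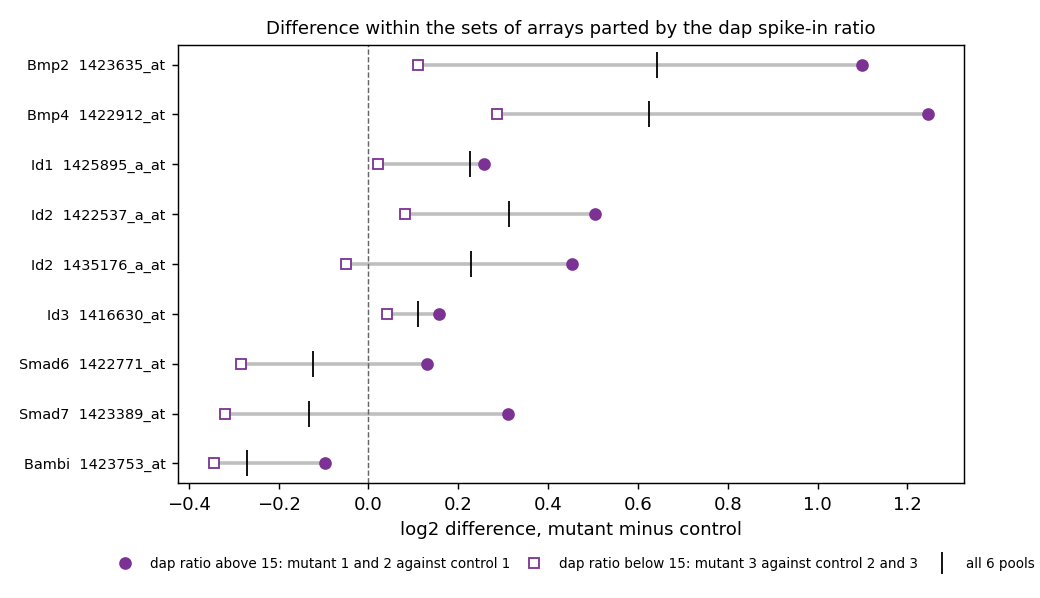
Log2 difference, mutant minus control (x axis), of the 9 tested probe sets within arrays with a dap ratio above 15 (filled circles), within those below 15 (open squares) and over all 6 pools (black ticks). Each of the 9 has its larger value within the high-ratio arrays, with the widest gaps for Bmp2 (1.10 and 0.11) and Bmp4 (1.25 and 0.29).

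Markers of tissues that also make BMP ligands differed between the groups. The signals of 13 surface ectoderm markers, 1 probe set each, summed to 26314 to 27822 in mutant pools and to 17119 to 19791 in control pools, with no overlap. Of these markers 10 were tested, with 13 probe sets, all of which had positive differences, and 1 passed, of Epcam, an epithelial adhesion gene. The gene of highest signal on that list, the simple-epithelium keratin Krt8, had 0.44 (SE 0.10, limma adjusted p = 0.0852). Epcam and Krt8 are genes of epithelia in general, so this sum cannot tell surface ectoderm from other epithelia. Gut endoderm markers had positive differences in 9 of 11 tested probe sets, and 0 passed. The 6 lateral and intermediate mesoderm markers measured summed to 3569 to 4213 in mutant and to 6311 to 6602 in control pools, and 2 of their 5 tested probe sets fell, of Prrx1 and Hand2, transcription factors of limb and lateral mesoderm. Differences were negative for 4 of the 6. Lhx1, a marker of intermediate mesoderm below the filter, read 368, 363 and 325 in mutant and 284, 243 and 258 in control pools, so it was higher in every mutant pool, and Osr1 was level. No probe set outside the array controls was listed at 0 (lowest signal 12.7), so a marker signal above 0 does not show that a cell type was present. The part of surface ectoderm or lateral mesoderm in the ligand values was not tested, and in bulk tissue fewer cells of a type and less RNA per cell cannot be told apart.

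**Figure D3:**
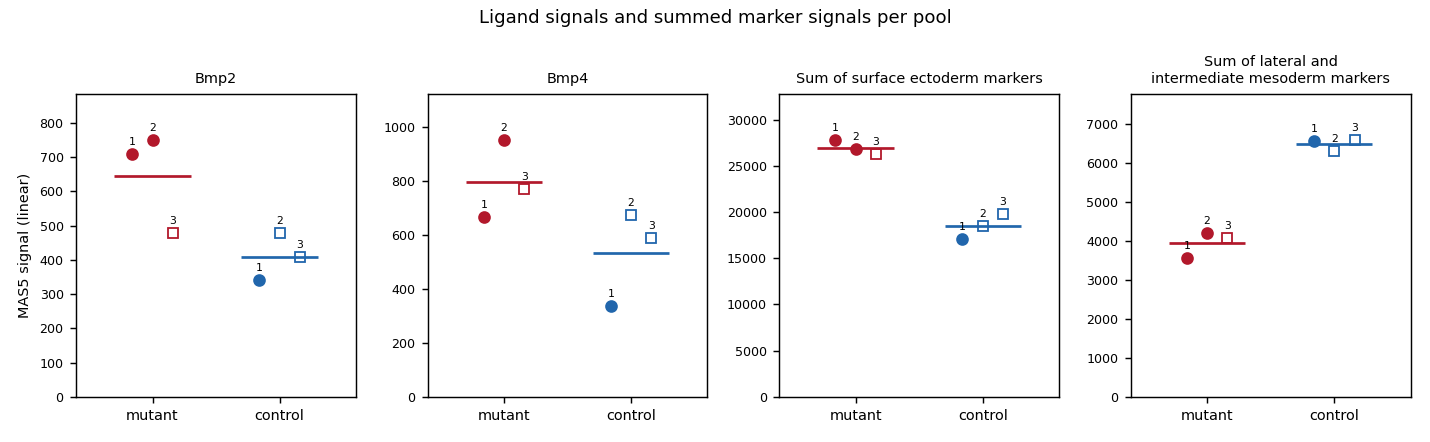
Signal per pool (linear, from 0) of Bmp2, Bmp4, the summed surface ectoderm markers and the summed lateral and intermediate mesoderm markers in mutant (red) and control (blue) pools; symbols as by dap ratio above 15 (filled circles) and below (open squares), bars are means. The marker sums do not overlap between genotypes (26314 to 27822 against 17119 to 19791, and 3569 to 4213 against 6311 to 6602), whereas both ligands do.

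The pools are labelled as PSM, and of 15 PSM markers 14 were measured. Dll1, a Notch ligand of the PSM, read 1743, 1590.5 and 2844 in mutant and 3089, 3497 and 3267 in control pools. Tbx6, a T-box factor of paraxial mesoderm, read 297, 275 and 412 in mutant and 501, 607 and 541 in control pools. The summed PSM markers ranged from 9264 to 12578 in mutant and from 15077 to 17042 in control pools. All 12 tested probe sets had negative differences, and 1 passed, of Ripply2, which sets the somite boundary. Of the 14 genes measured, all 14 were lower in a fit without a filter, and the groups did not overlap for 6. Sums of PSM markers were thus lower in mutant pools. No detection calls were used, and the lowest signal of any probe set outside the array controls was 12.7. A signal in every pool therefore cannot check the tissue label.

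The Id genes are the classical early targets of BMP signalling. The promoter windows of Id2 and Id3 (RefSeq, GRCm38.p6, 250 bases before to 50 after the start site, gene strand) are shown because both genes were measured at high signal and each window holds letters that Smad complexes or CREB are known to bind. Capitals mark matches to GGCGCC or CAGAC, short Smad-binding letters, and to TGACG, the core letters of the cAMP response element, on either strand.
Id2, chr12:25096043-25096342, minus strand: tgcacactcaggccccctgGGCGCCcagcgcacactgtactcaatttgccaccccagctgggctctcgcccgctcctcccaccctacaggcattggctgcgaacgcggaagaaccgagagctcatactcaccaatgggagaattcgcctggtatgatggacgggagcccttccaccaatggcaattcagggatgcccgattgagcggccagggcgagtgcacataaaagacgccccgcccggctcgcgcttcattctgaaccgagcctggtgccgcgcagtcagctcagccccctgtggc
Id3, chr4:136143572-136143871, plus strand: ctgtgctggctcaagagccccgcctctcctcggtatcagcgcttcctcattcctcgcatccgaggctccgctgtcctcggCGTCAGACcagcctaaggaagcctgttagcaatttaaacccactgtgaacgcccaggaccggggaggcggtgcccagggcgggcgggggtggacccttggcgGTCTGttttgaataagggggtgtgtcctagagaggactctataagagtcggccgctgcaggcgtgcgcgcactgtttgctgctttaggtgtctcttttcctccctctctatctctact

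The Id2 window holds GGCGCC 231 bases before the start site. In the Id3 window a reverse-strand TGACG begins 170 bases before the start and shares its last letters with a CAGAC at 167, and a reverse-strand CAGAC lies at 68. Windows were read for 4 of the 9 genes, and those of the other members are not reported here. The windows of Bmp4 and Smad6 hold none of these motifs, and the full element TGACGTCA is in 0 of the 4. Of all 32851 promoter windows, 1.79% hold TGACGTCA, 20.8% TGACG, 11.9% GGCGCC and 49.6% CAGAC, and these matches are a description of the letters, not of binding.

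Id1 read 4053, 3865 and 3043 in mutant 1, 2 and 3 and 3309, 2939 and 3057 in control 1, 2 and 3. Mutant 1 and 2 were above every control pool, and mutant 3 was below 2 of them. The log2 difference of Id1 was 0.23 (SE 0.13, interval −0.06 to 0.51, limma adjusted p = 0.481).

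Id2, which carries the GGCGCC window above, was measured by 3 probe sets. The signals of 1422537_a_at were 3682, 3366 and 2909.5 in mutant and 2482, 2601 and 2907 in control pools. It was the 1 of 9 tested probe sets whose groups did not overlap, by the small gap between mutant 3 and control 3. Of all tested probe sets, 9.53% had every mutant pool above every control pool. Its difference was 0.31 (SE 0.12, interval 0.04 to 0.59, limma adjusted p = 0.299). Probe set 1435176_a_at read 9254, 8174 and 6920.5 in mutant and 6349, 7250.5 and 7071 in control pools, with 0.23 (SE 0.12, limma adjusted p = 0.452). Here mutant 3 lay below control 2 and control 3. The dim 1453596_at had 279, 189 and 197 in mutant and 175, 170.3 and 238 in control pools, with 0.18 without a filter (SE 0.22). All 3 Id2 probe sets had positive differences, and mutant 1 was the highest array in each.

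Id3 had the smallest difference of the 9 tested probe sets. It read 4265, 3415 and 3585 in mutant and 3424, 3158 and 3846 in control pools, and the groups were interleaved. The difference was 0.11 (SE 0.12, limma adjusted p = 0.757), and its interval of −0.17 to 0.38 corresponds to 0.892-fold to 1.30-fold. For Id1 the interval reached from 0.960-fold to 1.43-fold, and for Id2 1435176_a_at from 0.972-fold to 1.41-fold. The interval of Id2 1422537_a_at lay above 0, that of the other 3 Id probe sets included it, and none reached 1 on the log2 scale. Single pools moved these values: Id3 had 0.014 without mutant 1, 0.043 without control 2, 0.17 without mutant 2 and 0.18 without control 3. Id1 had 0.15 without mutant 1 and 0.35 without mutant 3, and Id2 1435176_a_at had 0.13 without mutant 1.

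**Figure D4:**
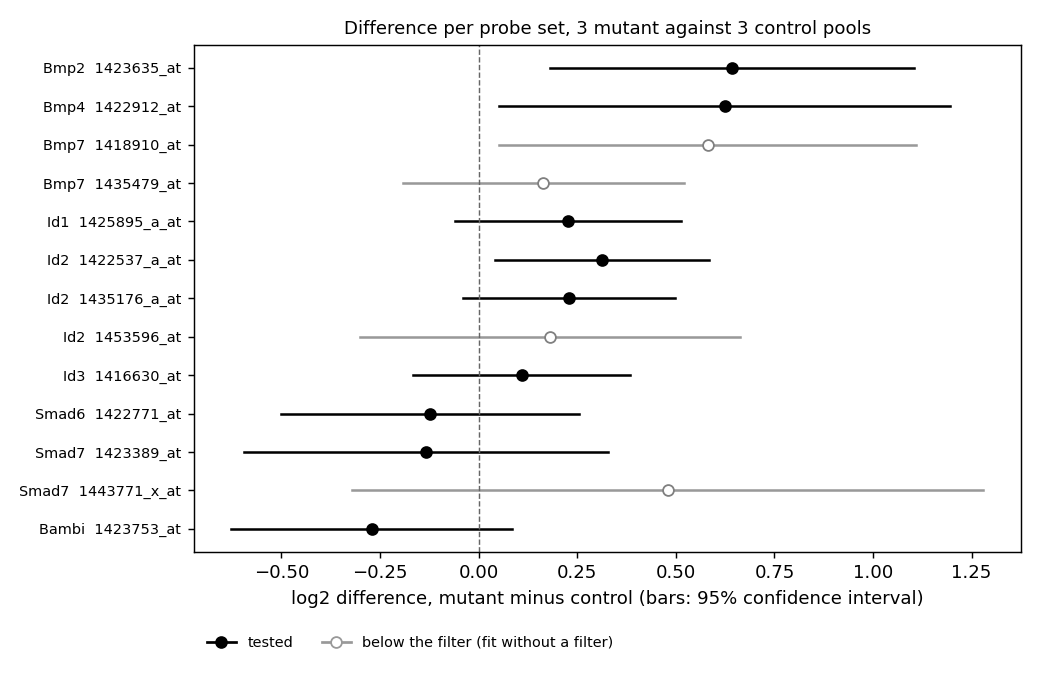
Log2 difference, mutant minus control, of the 13 probe sets with 95% confidence intervals; filled points are tested probe sets, open points those below the filter, from a fit without a filter. Bmp2 (0.64) and Bmp4 (0.62) lie farthest to the right, the Bmp7 probe sets at 0.58 and 0.16, the Id genes between 0.11 and 0.31, and Smad6, Smad7 1423389_at and Bambi left of 0.

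Within the high-ratio arrays the differences were 0.26 for Id1, 0.50 and 0.45 for the tested Id2 probe sets and 0.16 for Id3. Within the other arrays they were 0.02, 0.08, −0.05 and 0.04. The Id genes thus had their positive values mostly in the set with mutant 1, mutant 2 and control 1, the same arrays in which Bmp2 and Bmp4 differed most.

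The feedback inhibitors had negative differences, none of which passed. Smad6, an inhibitory Smad that acts mainly on BMP signals, read 623, 521 and 545 in mutant and 520.1, 580.0 and 758 in control pools. The mutant pools lay within the range of the control pools, whose control 3 was high. The difference was −0.12 (SE 0.17, interval −0.50 to 0.26, limma adjusted p = 0.807), and without control 3 it was 0.03.

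Smad7, an inhibitory Smad of both BMP and TGF-beta signals, read 337, 382 and 377 in mutant and 289, 478 and 463 in control pools with 1423389_at. The mutant pools sat between control 1 and the other controls. Its difference was −0.13 (SE 0.21, interval −0.59 to 0.33, limma adjusted p = 0.829), with −0.37 without control 1 and −0.01 without control 2. The second Smad7 probe set, 1443771_x_at, is dim and of a kind that can cross-hybridise. It read 646, 259.8 and 208 in mutant and 189.7, 283 and 239.6 in control pools, so mutant 1 alone stood high, and its difference had the opposite sign, 0.48 (SE 0.36, no filter, limma adjusted p = 0.626), with 1.11 in the high-ratio set and −0.32 in the other.

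Bambi, a pseudoreceptor that blocks BMP and TGF-beta receptors, read 1203, 1513 and 1376 in mutant and 1442, 1498 and 2036 in control pools. Control 3 was the highest array and mutant 1 the lowest, with the other arrays interleaved. The difference was −0.27 (SE 0.16, interval −0.63 to 0.08, limma adjusted p = 0.495), and without control 3 it was −0.11. In the high-ratio set and the other set, the inhibitors had 0.13 and −0.28 (Smad6), 0.31 and −0.32 (Smad7 1423389_at) and −0.10 and −0.34 (Bambi).

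Of 54 further genes of the BMP pathway, 32 were measured and 19 tested, with 31 probe sets. None passed (0 higher, 0 lower), against 0.69% of all tested probe sets. An unadjusted p under 0.05 was found for 6 of the 31, 5 of them with a negative difference. Of all tested probe sets, 13.6% had such a p in either direction. A model without moderation gave 3 of the 31, and 1468 of all 11731. Positive differences made up 49.6% of all tested probe sets. Negative differences were seen in 23 of the 31, with a median of −0.11, against −0.0018 over all tested probe sets. The 27 pathway probe sets below the filter ran otherwise, with 18 positive and 9 negative differences in the fit without a filter. Over all 58 measured, 26 were positive and 32 negative, with a median of −0.053, and 0 passed. An unadjusted p under 0.05 was found for 11 of the 58, against 2512 of all 19551 probe sets in that fit. Within the high-ratio set 18 of the 31 tested were negative, and within the other set 23 were. Groups did not overlap in 7 of the 31, 6 of them with mutant lower, where 20% of all tested probe sets had no overlap and 10.5% had mutant lower.

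Of the receptors, 9 probe sets of 5 genes were tested. Acvr1, a type I receptor for BMPs, read 785, 675 and 809.7 in mutant and 1039.9, 937 and 916 in control pools. All mutant pools were below all control pools, with a difference of −0.35 (SE 0.13, limma adjusted p = 0.281). The main type I receptor gene Bmpr1a had −0.14 with 1425492_at (SE 0.10, limma adjusted p = 0.607), and its other 3 tested probe sets lay between −0.14 and 0.05.

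Of the Smad transducers, 6 of 7 tested probe sets had negative differences, with a median of −0.25. Within the high-ratio set and within the other set 6 of 7 were negative too, with medians of −0.23 and −0.18. Smad1, which BMP receptors phosphorylate, read 2175, 2097 and 2256 in mutant and 2694, 2601 and 2528 in control pools with 1448208_at, again with no overlap. This difference was −0.26 (SE 0.10, limma adjusted p = 0.290), but the other tested Smad1 probe set had −0.06. Smad5, its close relative, had −0.29 with 1433641_at (SE 0.13, limma adjusted p = 0.365) and 0.18 with 1451873_a_at. Smad4 had −0.31 with 1422485_at, −0.25 with 1422486_a_at and −0.20 with 1422487_at (limma adjusted p = 0.394, 0.390 and 0.440). Of these Smad4 probe sets, only 1422487_at had groups that did not overlap.

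Of other BMP targets, all 5 tested probe sets had negative differences over the 6 pools, but only 2 of the 5 did within the high-ratio set, against 5 of 5 within the other. Tbx3, a T-box repressor, read 415, 377 and 537 in mutant and 711, 498 and 731 in control pools, with −0.54 (SE 0.20, limma adjusted p = 0.274). The dim Tbx3 probe set 1437479_x_at read 204, 228 and 231 in mutant and 413, 238 and 394 in control pools. Its groups did not overlap, with −0.61 without a filter (SE 0.22, limma adjusted p = 0.278). Msx1, a homeobox gene of dorsal and lateral tissue, had −0.44 with 1448601_s_at (SE 0.29, limma adjusted p = 0.563). Its control pools were spread widely, at 1551, 3281 and 3385, against 1541, 1778 and 2513 in mutant pools, and control 1 was the low one, as for Bmp4. Its difference was 0.09 within the high-ratio set and −0.41 within the other. The other tested Msx1 probe set, 1417127_at, had −0.32 (SE 0.38, limma adjusted p = 0.776).

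Secreted antagonists and modulators had 4 tested probe sets of 3 genes. Fstl1, a follistatin-like protein that binds BMP4, had −0.19 with 1416221_at (SE 0.11, limma adjusted p = 0.484), and Fst, follistatin, had 0.15 with 1434458_at (SE 0.27, limma adjusted p = 0.865). The dimmer Fst probe set, 1421365_at, read 196, 202 and 184 in mutant and 111, 115 and 135 in control pools, with no overlap and a difference of 0.69 without a filter (limma adjusted p = 0.140). Most other dim antagonist probe sets had positive differences in that fit. Grem1 had 0.99, Bmper 0.51 and Cer1 −0.70 (SE 0.40, 0.23 and 0.28, limma adjusted p = 0.336, 0.387 and 0.336). The groups overlapped for Grem1 and Cer1. Within the high-ratio set and the other set, Grem1 had 1.20 and 0.09, Bmper 0.56 and 0.32, and Cer1 −1.02 and −0.06. Chrdl1 had 0.32 and 0.38 with its probe sets, and the dim Twsg1 probe sets had 0.42 and −0.07. Among intracellular regulators, the ubiquitin ligase gene Smurf2 had −0.31 with 1454894_at (SE 0.12, limma adjusted p = 0.312). Its other tested probe set, 1429045_at, had the opposite sign, 0.37 (SE 0.29, limma adjusted p = 0.638), and the dim 1429046_at had 0.11 without a filter. The Smad corepressor gene Ski had 0.39 with 1429192_at (SE 0.16, limma adjusted p = 0.328) and 0.08 with 1426373_at (SE 0.16, limma adjusted p = 0.883). Of 11 other ligand genes only Bmp5 was measured, with 2 probe sets below the filter.

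**Figure D5:**
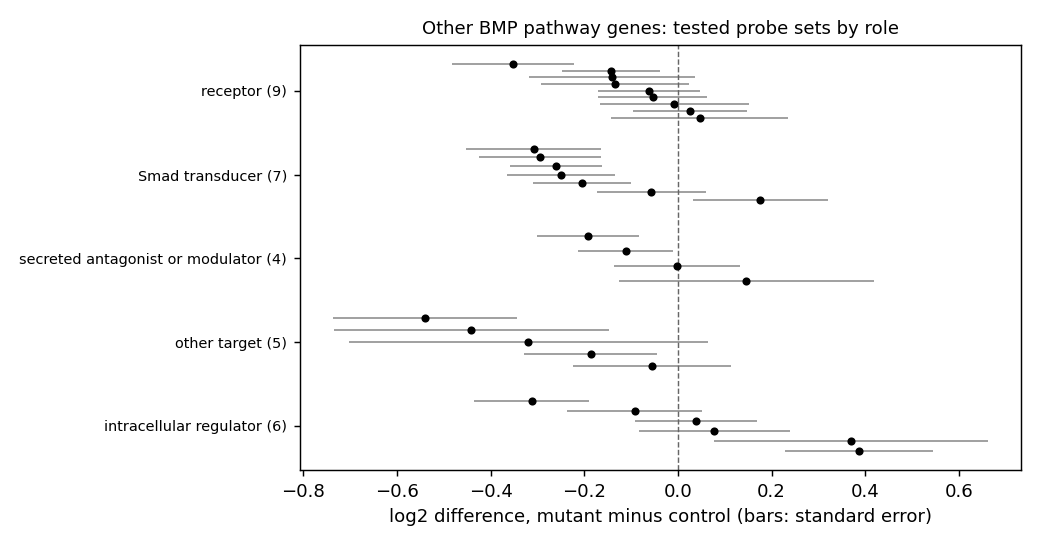
Log2 difference, mutant minus control (x axis, bars are standard errors), of the 31 tested probe sets of other BMP pathway genes, grouped by role with the number of probe sets in brackets. All 5 probe sets of other targets and 6 of 7 of Smad transducers lie left of 0, and none of the 31 passed.

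The profiles nearest to a ligand and to a target were taken for Bmp4 and for Id2 1435176_a_at, the brightest of each kind. The measure was the root mean square difference of log2 signals over the 6 arrays, each profile centred on its own mean, among 10837 probe sets of other genes. Nearest to Bmp4 were Tprkb (0.082), Tatdn1 (0.161) and Stard10 (0.161). Nearest to Id2 were Hk1 (0.042), Cib1 (0.047) and Dmxl1 (0.054). None of these 6 genes passed the test either, with adjusted p from 0.281 to 0.630 by limma.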

How the data were processed

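The authors deposited 1 linear signal intensity per probe set and array for 6 arrays, 3 mutant and 3 control pools grouped by title. Per the submitters' processing notes the tools were Affymetrix Expression Console and MAS5; versions, scaling target and detection calls are not given in the sources used here. The authors' scaling was kept. Of 19606 probe sets, 55 were array controls, and 17348 had exactly 1 symbol in the platform annotation. The files name no genome build, and promoter windows came from RefSeq, GRCm38.p6.

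Signals were analysed as log2(signal + 1), with probe sets below the 40th percentile of mean log2 signal left out. Limma 3.58.1 (R 4.3.3; lmFit, eBayes with intensity trend, two-sided) compared 3 mutant with 3 control pools over 11731 probe sets, with Benjamini-Hochberg adjustment over all of them. The fit was checked on simulated data with independent noise for each probe set. That simulation had no effects shared by an array, so it does not cover the split of arrays by dap ratio. The labels call the pools biological replicates, and the number of arrays limits the precision.

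Members, lists and tests were chosen with earlier results of these data known, including the split of arrays by dap ratio. Named besides the members were, for each pathway role, the 2 genes with the smallest p, Tbx6, Dll1, the brightest surface ectoderm marker and the 3 nearest profiles to the brightest ligand and target. Epcam, Prrx1, Hand2, Lhx1, Osr1, Ripply2, Kdr, Smad4, Grem1, Bmper, Cer1, Chrdl1 and Twsg1 were named after their values were seen. Besides surface ectoderm, lateral mesoderm and PSM, 5 lists of other cell types were made, and their summed signals stand in the closing section. Alternatives were other normalization, offsets, filters, variance models, weights, blocks and thresholds, and leaving out each pool.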

Additional observations from a re-analysis of the deposited data

How the results depend on the processing

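Of the alternatives, 12 gave other estimates for the tested member probe sets. Of these 108 estimates, 107 kept their direction and 2 passed the threshold. With array quality weights 1 member probe set passed, Bmp2 (0.67, limma adjusted p = 0.0222), in a fit that called 1196 probe sets and 4 other pathway probe sets, all 4 lower. With the spike-in ratio block 1 passed, Bmp4, in a fit that called 555. The count over all probe sets was 81 in the reported fit, 48 with a filter at the 60th percentile, 243 at an adjusted p under 0.1 and 4 without moderation. Leaving out 1 pool gave 23 to 151, and 0 members in each such fit. The count was 23 without mutant 1, 28 without mutant 2 and 151 without mutant 3. It was 120 without control 1, 28 without control 2 and 26 without control 3. Smad6 ranged from −0.24 to 0.031 with 1 pool left out. Within the high-ratio arrays Smad6 had 0.13 and Smad7 0.31, and within the others Id2 1435176_a_at had −0.049, each turning its sign; the cause was not tested. Median centring moved the median of all tested probe sets to −0.03. Residuals of equally numbered pools correlated at 0.20, −0.45 and 0.37, and 2 of 6 arrays correlated best with their own number, so numbers were not taken as pairs; the replicate block called 120 probe sets and 0 members. With no detection calls used, dim probe sets such as those of Bmp7 have unknown background.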

Other observations

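Each of the 9 tested probe sets of the BMP genes had a larger difference in the high-ratio set than in the other set, with medians of 0.31 and 0.02, while 49.6% of all 11731 tested probe sets did. The 9 share arrays, and each set rests on a single pool of 1 genotype, so this is a description.

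Summed markers of other cell types were as follows. Blood markers summed to 42836 to 60169.6 in mutant and 30465 to 42760.3 in control pools, where control 1 was the lowest. Their median difference was 0.96 in the high-ratio set and 0.01 in the other. Endothelial markers summed to 6136 to 8983 in mutant and 11176 to 12058 in control pools, and 1 of 10 tested probe sets fell, of Kdr, a VEGF receptor. Gut endoderm markers summed to 12377 to 22049 and 10131 to 13537 in mutant and control pools, neural tube markers to 5198 to 7481 and 4676 to 6631, and the 1 notochord and floor plate marker measured, Shh, read 1671 to 3166 and 2096 to 2832. The part of these markers in the values of the BMP genes was not tested.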
